A study of Mus musculus with 8 samples.

Results

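The class II genes of the mouse major histocompatibility complex, together with the invariant chain gene Cd74 and the class II transactivator gene Ciita, were followed in primary hepatocytes that lacked heme oxygenase 1, had heme oxygenase 2 knocked down, or both. The set held 9 genes by name: H2-Aa, H2-Ab1, H2-Eb1, H2-DMa, H2-DMb1, H2-Oa, H2-Ob, Cd74 and Ciita. A gene was measured where a probe set of the array carried its symbol alone, and the brightest such probe set was used. This gave 8 of the 9 genes, each with 1 probe set, among 19937 genes tested. H2-DMb1 shares its probe set with H2-DMb2, so it has no value here. The H2 genes lie near each other in the class II region of chromosome 17.

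Hepatocytes came from livers of male BALB/c mice that were HO1+/+ or HO1-/-, were purified on a Percoll gradient and received a lentiviral pLKO.1 vector. The 8 arrays formed 4 groups of 2: control (HO1+/+, scrambled shRNA), HO1 knockout (HO1-/-, scrambled shRNA), HO2 knockdown (HO1+/+, shRNA against HO2) and combined (HO1-/-, shRNA against HO2). All groups were selected in puromycin from 24 h after transduction for 3 days, were exposed for 30 min to dexamethasone at 1 µM and were collected 28 h later, so the controls carry the virus, the selection and the glucocorticoid too. HO2 was targeted with 1 hairpin, which some labels call siRNA. The age of the mice was not given. The titles call the 2 samples of a group biological replicates without saying whether animals, preparations or cultures were separate. The p-values therefore measure the spread between these samples, and the hepatocyte preparation and the genotype cannot be told apart.

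MHC class II molecules show peptides from the endosomes of a cell to CD4+ T cells. An alpha and a beta chain form the peptide groove, the invariant chain Cd74 fills and escorts it, cathepsins trim Cd74 to a short fragment called CLIP, and H2-DM exchanges CLIP for peptide while H2-O restrains H2-DM. Transcription of these genes depends on Ciita, which does not bind DNA itself but docks on RFX, CREB and NF-Y at the X and Y boxes of their promoters. In liver, class II is a property of Kupffer cells, dendritic cells, B cells and the sinusoidal lining, while resting hepatocytes carry little of it.

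Promoters of 4 measured members are printed because they share letters of this module; none was looked at for H2-Ab1, Cd74 or Ciita. GNAAC, where N is any base, followed on the gene's strand by GATTGG with 29 to 32 bases from start to start, was found in 40 of 32851 RefSeq promoters of GRCm38.p6 (0.122%), each running from 250 bases before the start to 50 after it. On either strand the pair was in 0.234% of promoters, GATTGG alone in 16.1% and GNAAC alone in 84.8%. The pattern was chosen after these promoters had been looked at, so the match is a description, and it is not evidence of a bound factor. The stretches lie at chr17:34287855-34287916 (minus strand) before H2-Aa, chr17:34305764-34305824 (plus strand) before H2-Eb1, chr17:34092291-34092352 (plus strand) before H2-Oa and chr17:34238806-34238864 (plus strand) before H2-Ob. Capitals mark the X box match and then the Y box match. The bases are those of the reference genome and not of BALB/c.
H2-Aa: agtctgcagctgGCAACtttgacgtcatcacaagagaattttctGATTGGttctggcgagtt
H2-Eb1: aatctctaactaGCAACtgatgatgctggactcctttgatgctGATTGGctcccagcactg
H2-Oa: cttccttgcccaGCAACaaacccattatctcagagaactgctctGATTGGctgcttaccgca
H2-Ob: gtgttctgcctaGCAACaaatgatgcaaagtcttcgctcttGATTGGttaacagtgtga
In H2-Aa the matches begin at -81 and -49 from the start, and in H2-Eb1 at -91 and -60. H2-DMb1 and the neighbouring H2-Eb2 hold the pair as well, while neither of the 2 H2-DMa promoters does within this window. Of the 4 measured members with the pair, H2-Aa was called higher in 3 of the 5 group comparisons, H2-Eb1 in 1, and H2-Oa and H2-Ob in 0. H2-DMa, without the pair in this window, was called higher than control in each of the other groups, so the calls do not follow the pair.

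Expression was read on arrays as log2 signal. Of 20 hepatocyte markers, 2 had a control mean below 6.767, the 25th percentile of gene means that served as the limit for a dim gene. Hepatocyte transcripts were thus visible. Of 16 stellate cell and fibroblast markers 1 was below it, so this limit does not measure the purity of the cells. Correlations of all genes ran from 0.9926 to 0.9965 between the 2 replicates of a group and from 0.976 to 0.9903 between groups. Hmox2, the target of the hairpin, had a mean log2 signal of 11.49 in control and 11.60 in HO1 knockout arrays, and of 8.35 in HO2 knockdown and 9.29 in combined arrays. The knockdown thus left 0.94 more log2 signal in the combined group (SE 0.0648, adjusted p = 2.4e-08). Hmox1 signal was 0.54 higher in HO1 knockout than in control arrays and 0.88 higher in combined than in HO2 knockdown arrays. Which exons the knockout removes is not given, so this signal does not check the genotype, and every HO1 direction below rests on the labels.

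A gene was called where its p-value from limma, adjusted over all genes by the Benjamini-Hochberg method, was under 0.05; values below are log2 signals and differences of log2 signal. Cd74 had the largest change of the 8 measured members. Its transcript rose in arrays labelled HO1-/-, and rose much further where HO2 was knocked down as well, while the HO2 hairpin in HO1+/+ cells gave no called change. Its log2 signal was 6.73 and 6.05 in control, 7.72 and 7.64 in HO1 knockout, 6.59 and 6.44 in HO2 knockdown, and 9.35 and 9.49 in combined arrays. The group means were 6.39 ± 0.484, 7.68 ± 0.0577, 6.52 ± 0.103 and 9.42 ± 0.1 (SD, n = 2 each). Both combined arrays lay above both HO1 knockout arrays, these lay above all others, and the control and HO2 knockdown arrays overlapped. The control arrays stood apart from each other by 0.684, the widest gap between replicates of any member. HO1 knockout exceeded control by 1.29 (SE 0.159, adjusted p = 2.67e-05), a 2.44-fold difference. Combined exceeded control by 3.03 (adjusted p = 3.87e-10, 8.18-fold), HO1 knockout by 1.75 (adjusted p = 5.24e-07, 3.35-fold) and HO2 knockdown by 2.91 (adjusted p = 1.34e-09, 7.5-fold). HO2 knockdown and control differed by 0.13, with a 95% interval of -0.21 to 0.46 and an adjusted p of 0.572. Without control replicate 1, the brighter of the pair, this difference came to 0.47 with an adjusted p of 0.00372, so 1 array decides whether it is called. The interaction, the HO1 difference under the HO2 hairpin minus that under the scrambled hairpin, was 1.62 (SE 0.224, adjusted p = 0.000232).

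H2-Aa, which encodes the alpha chain of the I-A molecule, was called higher in combined arrays than in each of the other 3 groups, and neither single change gave a called difference from control in the fit of all arrays. Its log2 signal was 6.01 and 5.80 in control, 6.32 and 6.07 in HO1 knockout, 5.89 and 5.90 in HO2 knockdown, and 7.49 and 7.30 in combined arrays. Both combined arrays stood clear of the other 6, and the HO1 knockout arrays lay just above the control arrays. The means were 5.91 ± 0.147 in control and 7.40 ± 0.135 in combined arrays (SD, n = 2 each). The combined mean exceeded control by 1.49 (SE 0.115, adjusted p = 4.57e-08, 2.8-fold), HO1 knockout by 1.20 (adjusted p = 9.33e-07, 2.3-fold) and HO2 knockdown by 1.50 (adjusted p = 9.07e-08, 2.83-fold). HO1 knockout differed from control by 0.29 (95% interval 0.04 to 0.53, adjusted p = 0.132), which was called without control replicate 1 (0.39, adjusted p = 0.0436), and HO2 knockdown from control by -0.01 (95% interval -0.26 to 0.23). The interaction was 1.22 (SE 0.163, adjusted p = 0.000185). In the 3 groups without both changes the probe set was below the dim limit, so these differences may be understated.

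H2-Ab1, the beta chain that pairs with H2-Aa, was not called in any comparison. It read 8.63 and 8.51 in control, 8.66 and 8.60 in HO1 knockout, 8.41 and 8.61 in HO2 knockdown, and 8.65 and 8.66 in combined arrays. The combined arrays lay just above both control arrays, yet the difference of 0.09 had a 95% interval of -0.10 to 0.28. The 2 chains of the I-A molecule thus had different readings on these arrays, a change of 1.49 for the alpha chain and at most 0.28 by that interval for the beta chain. Whether the probes match the BALB/c alleles of these polymorphic genes was not checked.

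The I-E chains gave a like contrast. H2-Ea, the alpha chain, which was no member of the set, read 6.53 and 6.39 in control, 6.71 and 6.46 in HO1 knockout, 6.38 and 6.25 in HO2 knockdown, and 7.30 and 7.55 in combined arrays. Its combined arrays stood clear of all others, with an interaction of 0.98 (SE 0.169, adjusted p = 0.00144) and a combined excess over HO1 knockout of 0.84 (adjusted p = 6.61e-05). Like H2-Aa it was below the dim limit in the other 3 groups. H2-Eb1, the beta chain, read 7.81 and 7.77 in control, 7.91 and 7.91 in HO1 knockout, 7.69 and 7.58 in HO2 knockdown, and 7.96 and 8.09 in combined arrays. H2-Eb1 was called higher in combined than in HO2 knockdown arrays, by 0.39 (SE 0.0926, adjusted p = 0.0043). Against control its combined excess was 0.23 (adjusted p = 0.0749), and its interaction was 0.28 (95% interval -0.00258 to 0.56, adjusted p = 0.181). The call against HO2 knockdown was lost without HO2 knockdown replicate 2 (0.34, adjusted p = 0.0508) or without combined replicate 2 (0.32, adjusted p = 0.0754). H2-Eb2, a further beta chain gene, was not called in any comparison.

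**Figure D1:**
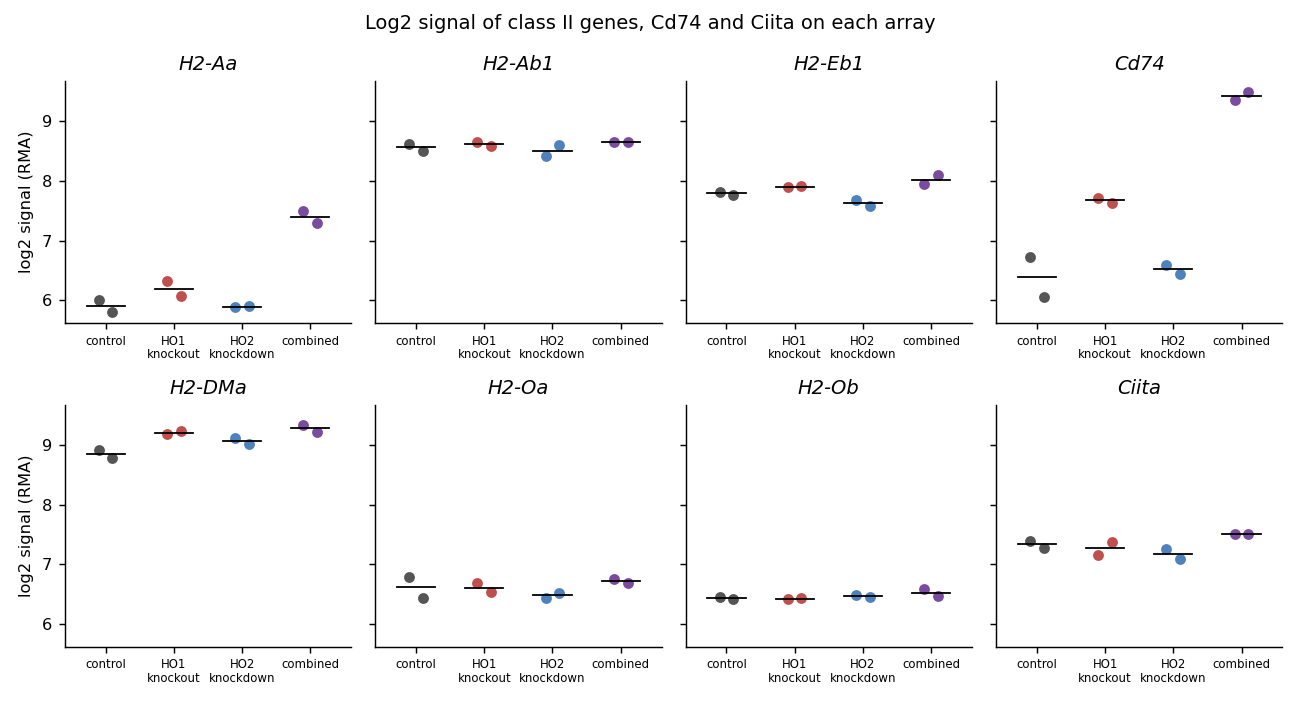
Log2 signal (RMA) of the 8 measured genes on each array, with a point for each of the 2 arrays of a group and a bar at the group mean; all panels share the vertical axis. Cd74 and H2-Aa stand high in the combined arrays, at means of 9.42 and 7.40, while the combined mean of H2-Ab1 (8.66) is close to its control mean (8.57).

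H2-DMa, the alpha chain of the H2-DM peptide editor, rose modestly over control in both HO1-/- groups. It read 8.93 and 8.79 in control, 9.19 and 9.23 in HO1 knockout, 9.12 and 9.03 in HO2 knockdown, and 9.34 and 9.23 in combined arrays. Control arrays were the lowest, and the other 3 groups lay above them without overlap with control. HO1 knockout exceeded control by 0.35 (SE 0.0784, adjusted p = 0.00611) and combined exceeded control by 0.43 (adjusted p = 0.000502). The HO2 knockdown excess of 0.22 was called (adjusted p = 0.0433) but kept that call in 7 of 19 alternatives, among which the highest adjusted p was 0.262. Combined exceeded HO2 knockdown by 0.21, which was not called (adjusted p = 0.0532) but was in 6 alternatives. The HO1 knockout excess was not called without HO1 knockout replicate 2 (0.33, adjusted p = 0.0621). The interaction of H2-DMa was -0.15, with a 95% interval of -0.38 to 0.09.

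H2-Oa and H2-Ob, which encode the H2-O inhibitor of peptide exchange, were not called in any comparison. H2-Oa ran from 6.44 to 6.78 over the 8 arrays and H2-Ob from 6.41 to 6.59, both under the dim limit on average. Their combined arrays differed from control by 0.11 (95% interval -0.14 to 0.36) and 0.10 (95% interval -0.11 to 0.30). In combined against HO2 knockdown H2-Oa gave 0.24 (adjusted p = 0.123), which was called in 4 alternatives. Without control replicate 2, H2-Oa was called lower in HO2 knockdown than in control arrays (-0.31, adjusted p = 0.0352).

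Ciita, on which inducible transcription of the set depends, read 7.40 and 7.28 in control, 7.15 and 7.38 in HO1 knockout, 7.26 and 7.10 in HO2 knockdown, and 7.51 and 7.50 in combined arrays. The 2 combined arrays were the highest of the 8, just above the brighter control array. Combined exceeded HO2 knockdown by 0.33 (SE 0.107, adjusted p = 0.0255) and control by 0.17 (95% interval -0.06 to 0.40, adjusted p = 0.289). The call against HO2 knockdown was lost without HO2 knockdown replicate 2 (adjusted p = 0.19), without combined replicate 1 (0.121), without combined replicate 2 (0.116), after another quantile normalization (0.27, adjusted p = 0.0556) and at an adjusted p under 0.01. The interaction of 0.41 was not called (SE 0.152, adjusted p = 0.094), though it was without control replicate 2 (0.46, adjusted p = 0.0377). The relation of the Ciita level to Cd74 and H2-Aa was not tested.

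Among the 8 measured members, 2 were called higher and 0 lower in HO1 knockout against control, where 5.62% of all genes tested were called higher and 7.2% lower. In HO2 knockdown against control 1 member was called higher and 0 lower, against 16.5% and 16.7% of all genes. In combined against control the members called higher were 3 and lower 0, against 11.6% and 18.3%. In combined against HO1 knockout 2 were higher and 0 lower, against 10.2% and 12.8%. In combined against HO2 knockdown 4 were higher and 0 lower, against 13% and 21%. For the interaction 2 were positive and 0 negative, against 4.67% and 7.57%. At an unadjusted p under 0.05 the members lower were also 0 in each of these limma comparisons. The HO2 knockdown count of 1 in 8 is no more than the background share. These shares of all genes are also the background of the list counts below, and a count near them is nothing particular to a list.

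The median member difference was 0.0884 in HO1 knockout, -0.0356 in HO2 knockdown and 0.201 in combined, each against control, beside all-gene medians of -0.0413, -0.066 and -0.019. The median interaction of the members was 0.262 beside 0.0479 for all genes. These comparisons share arrays with each other, so their member values are given side by side and are not correlated. Among genes called, the higher share in combined against HO2 knockdown was 38.2%, and 27.1% with arrays centred on their medians. For the interaction it was 38.2%, and 27.3% with centred arrays or 50.4% after another quantile normalization. No called member changed direction under any alternative tried.

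**Figure D2:**
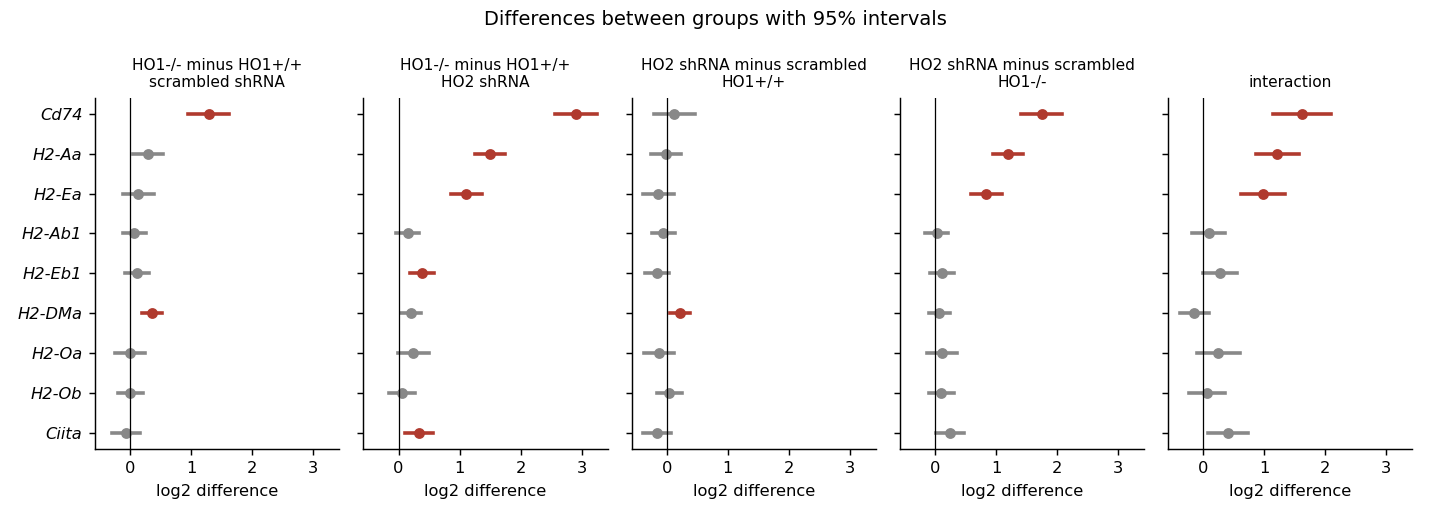
Log2 differences with 95% intervals for the 8 members and H2-Ea, in panels for the HO1 difference under each hairpin, the HO2 hairpin difference in each genotype and the interaction; red marks an adjusted p under 0.05. Cd74, H2-Aa and H2-Ea lie to the right in every panel with combined arrays, with interactions of 1.62, 1.22 and 0.98, while the intervals of H2-Ab1 span 0 in all panels.

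Of 11 factors and coactivators that Ciita works with at the X and Y boxes, 0 were called in HO1 knockout against control by limma, and 2 were lower at an unadjusted p under 0.05. Their median difference was -0.0699, beside -0.0413 for all genes. In HO2 knockdown against control 5 were called higher, where 16.5% of all genes were. Among the 5 were the acetyltransferase genes Ep300 (0.44, adjusted p = 4.72e-05) and Kat2b (0.34, adjusted p = 0.00122) and the NF-Y subunit gene Nfyb (0.43, adjusted p = 0.00125). In combined against control 2 were higher and 3 lower, where 11.6% and 18.3% of all genes were. In combined against HO2 knockdown 4 were lower and 0 higher, where 21% and 13% of all genes were. Rfx5, a subunit of RFX, fell by 0.39 from HO1 knockout to combined arrays (adjusted p = 0.00772). The interaction was called for Nfyb (-0.41, adjusted p = 0.0435) and for no other of the 11, and Nfyb kept that call in 8 of 18 alternatives.

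Interferon gamma is the textbook inducer of Ciita, through its receptor, JAK kinases and Irf1. Of 10 measured genes listed for this input, 1 was higher and 1 lower in HO1 knockout, 1 higher and 5 lower in HO2 knockdown, and 1 higher and 5 lower in combined, each against control. Shares of all genes in these comparisons were 5.62%, 16.5% and 11.6% higher, and 7.2%, 16.7% and 18.3% lower. Irf1 read 10.00 and 10.14 in control, 10.07 and 9.91 in HO1 knockout, 9.48 and 9.40 in HO2 knockdown, and 9.66 and 9.72 in combined arrays. Irf1 fell by 0.63 with the HO2 hairpin in HO1+/+ cells (adjusted p = 5.35e-06), and combined arrays stayed below control (-0.38, adjusted p = 0.000761). Irf1 was higher in combined than in HO2 knockdown arrays (0.25, adjusted p = 0.0145), and its interaction of 0.34 (adjusted p = 0.0452) was called in 6 of 18 alternatives. The part of this input in the Cd74 and H2-Aa values was not tested. Socs3, a feedback inhibitor of JAK signalling, was 0.69 higher in HO1 knockout (adjusted p = 3.33e-06), and the kinase gene Jak2 fell by 0.47 in combined against control (adjusted p = 2.24e-05).

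Of 13 genes that prepare antigen and trim Cd74, 7 were called higher and 0 lower in HO1 knockout against control, 5 higher and 3 lower in HO2 knockdown against control, and 9 higher and 1 lower in combined against HO2 knockdown. Ctss, the protease that makes the last cuts in Cd74 in many antigen-presenting cells, read 7.43 and 7.40 in control, 11.34 and 11.38 in HO1 knockout, 6.94 and 7.47 in HO2 knockdown, and 11.70 and 11.73 in combined arrays. The 4 arrays labelled HO1-/- were far above the 4 labelled HO1+/+. The Ctss difference was 3.95 under the scrambled hairpin and 4.51 under the HO2 hairpin (adjusted p = 4.13e-13 and 8.87e-14), with an interaction of 0.56 (SE 0.165, adjusted p = 0.0368) that was called in 8 of 18 alternatives. Lgmn, an asparaginyl protease, rose by 1.35 in HO1 knockout (adjusted p = 1.94e-12) and by 0.98 under the HO2 hairpin. Marchf1, the ubiquitin ligase that removes class II from the surface and was singled out after its values were seen, was 0.31 higher in HO1 knockout without being called (adjusted p = 0.0902) and 0.57 higher in combined than in HO2 knockdown arrays (adjusted p = 0.0011). Ifi30, which reduces disulfides in endosomes, fell by 0.68 with the HO2 hairpin in HO1+/+ cells (adjusted p = 2.16e-08).

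Among 12 genes of co-stimulation and T cell contact, 3 were higher and 1 lower in HO1 knockout, and 2 higher and 6 lower in HO2 knockdown, each against control. In combined against HO2 knockdown 9 were higher and 1 lower. Vsir, an inhibitory ligand of the B7 family, rose by 1.40 in HO1 knockout (adjusted p = 2.04e-09), and Cd80, a ligand of CD28, rose by 0.91 (adjusted p = 3.08e-06). Cd40, the receptor through which T cells activate presenting cells, went the other way, with -0.76 in HO1 knockout (adjusted p = 9.4e-07), -0.99 in HO2 knockdown (adjusted p = 2.54e-08) and -0.95 in combined, each against control. Cd86, which also binds CD28, had an interaction of 0.48 (adjusted p = 0.045) that was called in 6 of 17 alternatives. Cd274, the ligand PD-L1, fell by 0.72 with the HO2 hairpin in HO1+/+ cells (adjusted p = 9.3e-06).

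The class I pathway presents cytosolic peptides to CD8+ T cells. The listed class I genes H2-K1, H2-D1, H2-Q6, H2-Q7 and H2-T23 had no probe set carrying their symbol alone, so they have no value here. Of the 17 listed genes of the pathway with a value, 0 were higher and 2 lower in HO1 knockout against control (2 and 2 at an unadjusted p under 0.05). In HO2 knockdown against control 1 was higher and 7 lower. All-gene shares were 5.62% higher and 7.2% lower in the first comparison, and 16.5% higher and 16.7% lower in the second. In combined against HO2 knockdown 5 were higher and 0 lower, and the interaction was called for 4, all positive. Psmb9, a subunit of the immunoproteasome, read 9.20 and 9.40 in control, 9.27 and 9.30 in HO1 knockout, 8.60 and 8.77 in HO2 knockdown, and 9.30 and 9.41 in combined arrays. Its HO2 knockdown arrays were the lowest, its combined arrays overlapped the control arrays, and its interaction was 0.68 (adjusted p = 0.00189). For Cd74 and H2-Aa, by contrast, the combined arrays lay above all other arrays. Nlrc5, the class I counterpart of Ciita, had an interaction of 0.36 (adjusted p = 0.0249) that depended on the probe set, since the mean of its probe sets gave -0.03 (adjusted p = 0.887).

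**Figure D3:**
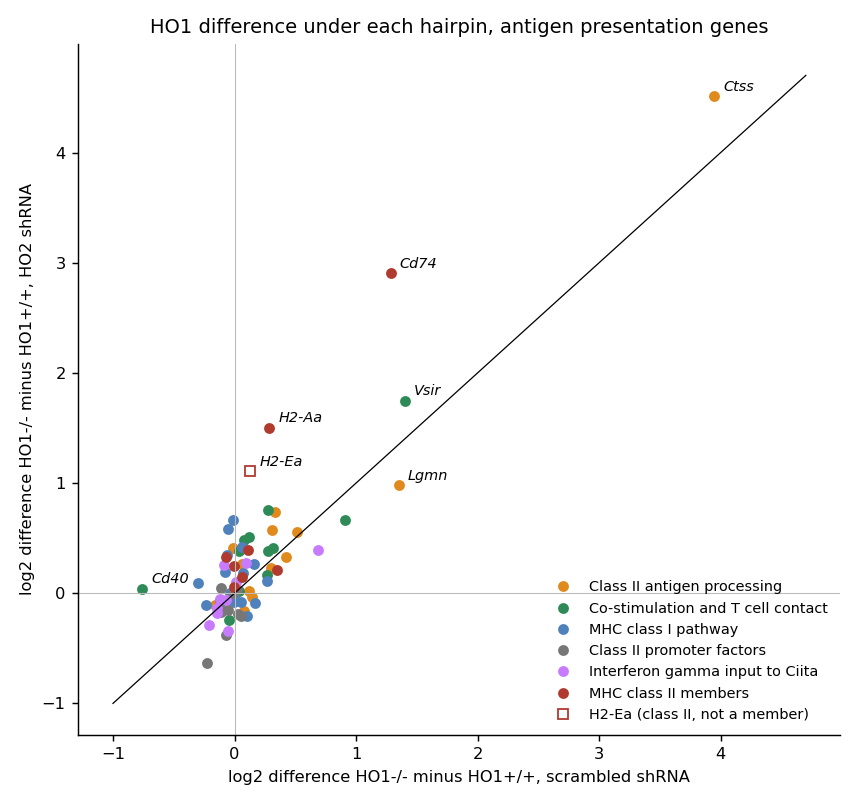
HO1 difference under the scrambled hairpin (horizontal, log2) against that under the HO2 hairpin (vertical, log2), with a point for each measured gene of the listed pathways and a line where the differences are equal. Cd74 (1.29 and 2.91), H2-Aa (0.29 and 1.50) and H2-Ea (0.13 and 1.11) lie above the line. Ctss (3.95 and 4.51) lies above it too and is high on both axes.

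Markers of cells that carry class II differed between the groups too. Of 20 Kupffer cell and macrophage markers, 15 were higher and 1 lower in HO1 knockout against control, 1 higher and 3 lower in HO2 knockdown against control, and 15 higher and 0 lower in combined against HO2 knockdown. Their summed linear signal was 9065 to 9558 in control, 38130 to 38980 in HO1 knockout, 8044 to 8253 in HO2 knockdown and 37360 to 39340 in combined arrays. This sum was about equal in HO1 knockout and combined arrays, while single markers moved in both directions between these groups. In combined against HO1 knockout 4 of the 20 were higher and 5 lower, with a median of 0.0399. Lyz2 (4.54 in HO1 knockout, then 0.13 from HO1 knockout to combined), Mrc1 (3.88 and -0.01) and Adgre1 (4.65 and -1.29) had the largest changes in HO1 knockout. Adgre1, the F4/80 gene, was called lower in combined than in HO1 knockout arrays (adjusted p = 1.18e-07). The 4 markers that rose from HO1 knockout to combined were Vsig4 (1.35), C1qc (0.81), C1qa (0.64) and C1qb (0.40), and those that fell beside Adgre1 were Itgam (-1.01), Cd14 (-0.77), Cd5l (-0.58) and Fcgr1 (-0.28), all 8 singled out after their values were seen. From control to HO1 knockout, Vsig4 fell by 1.07, while C1qa (1.92), C1qb (3.79), C1qc (3.25) and Cd5l (1.41) rose. The 4 markers not called between these groups were Clec4f, Marco, Timd4 and Cd163, also singled out after their values were seen. Means in control and HO1 knockout arrays were 7.3966 and 7.3547 for Clec4f, and 7.0745 and 7.2251 for Marco. For Timd4 they were 6.6382 and 6.5893, and for Cd163 6.4531 and 6.4988, both genes under the dim limit on average. In the combined arrays 1 of the 20 markers had a mean under the dim limit. In bulk RNA, fewer cells of a type and less RNA per cell cannot be told apart, and the part of these cells in the Cd74 and H2-Aa values was not tested.

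Of 16 dendritic cell markers, 3 were higher and 1 lower in HO1 knockout against control, 2 higher and 2 lower in combined against HO1 knockout, and 8 higher and 0 lower in combined against HO2 knockdown. Their summed linear signal was 8543 to 8931 in control, 10100 to 10230 in HO1 knockout, 8803 to 8886 in HO2 knockdown and 10490 to 10530 in combined arrays, and 7 of the 16 were under the dim limit in combined arrays. Cd24a, the brightest of the 16, had means of 12.13 in control, 12.21 in HO1 knockout, 12.50 in HO2 knockdown and 12.42 in combined arrays. The sum is weighted to it and does not measure the dim markers. The median marker difference in HO1 knockout against control was 0.00351. Sirpa (1.21), Clec10a (1.00) and Irf8 (1.00) changed most in HO1 knockout. From HO1 knockout to combined, Clec10a fell by 0.61 (adjusted p = 0.00221) and Sirpa by 0.35 (adjusted p = 0.000472), while Itgax and Cd24a (0.21, adjusted p = 0.013) rose. Itgax, which encodes CD11c and, like Cd24a, was singled out after its values were seen, read 6.48 and 6.41 in control, 6.76 and 6.62 in HO1 knockout, 6.14 and 6.53 in HO2 knockdown, and 7.55 and 7.60 in combined arrays. Its combined arrays stood clear of the rest in the manner of H2-Aa, with a difference of 0.89 from HO1 knockout (adjusted p = 3.98e-05) and an interaction of 1.00 (SE 0.171, adjusted p = 0.00129). Its mean over all arrays was below the dim limit. The other 12 markers were not called between HO1 knockout and combined arrays. Of these, Flt3, Zbtb46, Xcr1 and Clec9a were singled out after their values were seen. Means in control, HO1 knockout and combined arrays were 6.87, 6.77 and 6.76 for Flt3. They were 7.83, 7.70 and 7.77 for Zbtb46, 6.46, 6.48 and 6.42 for Xcr1, and 5.07, 5.11 and 5.09 for Clec9a. Flt3, Xcr1 and Clec9a were under the dim limit on average. The part of dendritic cells in the class II values was not tested.

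Of 11 B cell markers, 2 were higher and 1 lower in HO1 knockout against control, and 1 higher and 1 lower in combined against HO1 knockout. In combined against HO2 knockdown 3 of these markers were higher and 0 lower, where 13% and 21% of all genes were. Their summed linear signal was 1759 to 1867 in control, 1889 to 1923 in HO1 knockout, 1760 to 1835 in HO2 knockdown and 1974 to 1979 in combined arrays. Cd79a and Ms4a1, singled out as defining members, were under the dim limit on average and were not called in any comparison. Cd79b and Pax5, singled out after their values were seen, were above the dim limit on average. In control, HO1 knockout, HO2 knockdown and combined arrays the means were 7.53, 7.82, 7.28 and 7.62 for Cd79b. For Pax5 they were 7.08, 6.96, 6.92 and 7.19. The changes were Cd37 (1.15), Ebf1 (-0.57) and Cd22 (0.46) in HO1 knockout. The part of B cells in the class II values was not tested.

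Of 16 sinusoidal endothelial markers, 5 were higher and 1 lower in HO1 knockout against control, 10 higher and 0 lower in combined against control, and 7 higher and 1 lower in combined against HO1 knockout, with a median of 0.249 in the last. Their summed signal was 3054 to 3065 in control, 5594 to 5646 in HO1 knockout, 3798 to 3965 in HO2 knockdown and 6060 to 6412 in combined arrays. This linear sum is weighted to its brightest genes. In HO1 knockout arrays these were Stab1 (mean 10.59, against 8.40 in control) and Fcgr2b (10.33, against 7.15). Of the 16 markers, 10 were not called in HO1 knockout against control, and the median difference there was 0.145. Fcgr2b (3.18 in HO1 knockout, then -0.58 to combined), Stab1 (2.20 and 0.07) and Lyve1 (1.13 and 0.78) changed most in HO1 knockout. Of 16 stellate cell and fibroblast markers, 0 were higher and 10 lower in HO1 knockout against control, 3 higher and 4 lower in combined against control, and 11 higher and 1 lower in combined against HO1 knockout. They were led by Postn (-1.11 and 0.62), Sparc (-0.90 and 0.74) and Des (-0.89 and 0.38).

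Of 20 hepatocyte markers, 10 were higher and 2 lower in HO1 knockout against control, where 5.62% and 7.2% of all genes were. Both in HO2 knockdown and in combined against control 17 were higher and 1 lower. In combined against HO1 knockout 16 were higher and 0 lower. Their summed signal was 65310 to 66410 in control, 80080 to 80450 in HO1 knockout, 119000 to 122300 in HO2 knockdown and 126300 to 128900 in combined arrays. Ambp (1.10), Fgb (0.91) and Cps1 (0.76) changed most in HO1 knockout. Of 8 cholangiocyte markers 1, Tspan8 (0.52), was higher and 0 lower in HO1 knockout against control, and Pkhd1 (-0.26) and Krt7 (0.19) were not called. From HO1 knockout to combined 3 were higher and 2 lower. Of 12 neutrophil markers 2, S100a8 (0.50) and Csf3r (0.49), were higher and 0 lower in HO1 knockout against control, with Elane (-0.18) not called, and 1 was higher and 2 lower in combined against HO1 knockout. Of 11 T and NK cell markers, 0 were called in HO1 knockout or in combined against control by limma, and 0 had an unadjusted p under 0.05, with Ncr1 (-0.17), Cd3g (-0.11) and Thy1 (-0.11) farthest from 0 in HO1 knockout. The part of these cells in the class II values was not tested.

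**Figure D4:**
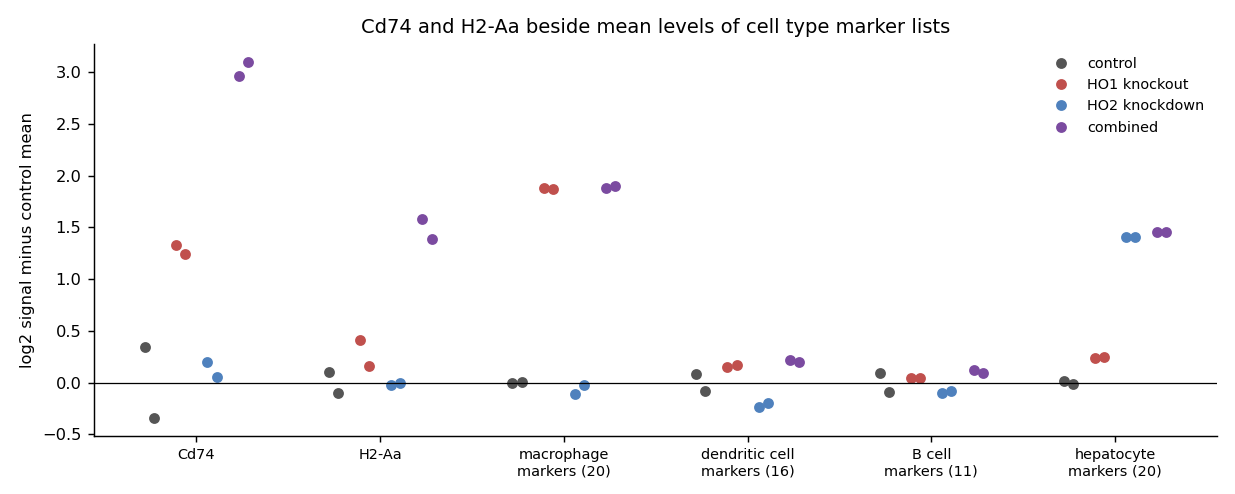
Log2 signal of Cd74 and H2-Aa and mean log2 signal of marker lists, each minus its control mean, with a point for each array and the number of genes of a list in brackets. The macrophage list reads alike in HO1 knockout (means of 9.626 and 9.618 before subtraction) and combined arrays (9.627 and 9.643), as a mean over markers that moved in both directions. Cd74 and H2-Aa are highest in the combined arrays.

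Over the 8 arrays, Cd74 and H2-Aa had a Pearson correlation of 0.963, Cd74 and H2-Eb1 of 0.858, Cd74 and H2-Ab1 of 0.628 and Cd74 and Ciita of 0.699, values that share the group structure and carry no test. The genes most like the set were ranked by their correlation with the mean of the centred log2 values of H2-Aa, H2-Ab1, H2-Eb1 and Cd74, among 1007 genes whose group means spanned at least 1 on the log2 scale. They were Ifi44l (0.9934), Cytip (0.9914), Treml4 (0.9891), Slfn1 (0.982), Hmox1 (0.9752), Clec7a (0.9745), Syngr1 (0.9719) and Lilra5 (0.9707). Clec7a, the beta-glucan receptor Dectin-1 of myeloid cells, read 7.17 and 6.93 in control, 8.94 and 8.84 in HO1 knockout, 6.98 and 6.88 in HO2 knockdown, and 10.27 and 10.41 in combined arrays. Ifi44l, an interferon-inducible gene, read 6.96 and 6.73 in control, 7.91 and 7.87 in HO1 knockout, 6.55 and 6.77 in HO2 knockdown, and 9.65 and 9.66 in combined arrays. Both had the order of Cd74, with combined highest, HO1 knockout next and the other 2 groups low. Since these genes were chosen for that pattern, their levels are a description.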

How the data were processed

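Total RNA of 8 samples was hybridised to Affymetrix whole-transcript mouse arrays, 1 array a sample. The log2 values are RMA signals deposited by the authors, made with the affy package in R 2.15.0, per the submitters' processing notes; the genome build is not given in the sources used here, nor is the probe set definition. Of 34760 probe sets, 21640 carried 1 symbol, 1321 several and 11799 none, by a platform annotation that can be old, and 19855 of the 19937 genes were found in the RefSeq table of GRCm38.p6. The brightest probe set stood for each of 954 genes with several.

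Group means were fitted over all 8 arrays with limma 3.58.1 (R 4.3.3), eBayes with a mean-variance trend (prior df 11.19, residual df 4) and two-sided moderated tests, with Benjamini-Hochberg adjustment over all genes. The number of arrays limits the precision. Array medians were 7.61 to 7.70. The steps were tested on simulated data. Groups came from the sample labels.

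Named were all members, Hmox1 and Hmox2, the 4 genes of each pathway list with the smallest p in HO1 knockout, HO2 knockdown and interaction, the 3 genes of each cell type list with the largest HO1 knockout change, and the 8 genes most correlated with the class II mean. Others are said to be singled out. Members and lists were chosen with earlier results of these data known. Alternatives varied normalization, probe set choice, variance model, array weights, dim gene filter, samples fitted, threshold and replicate block, and left out each array. Applying these to other named genes was chosen after seeing the data.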

Additional observations from a re-analysis of the deposited data

Results flagged for a closer look

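The interaction was followed for 96 of the named genes. The values below are those called by limma's adjusted p because the HO1 difference changed with the hairpin, 33 positive and 10 negative. Many of these genes were named for a small interaction p, for likeness to the class II genes or after their values were seen, so that count is raised by the choice; over all genes 4.67% were called positive and 7.57% negative. Of the members these were Cd74 (1.62) and H2-Aa (1.22), beside the chain gene H2-Ea (0.98), all on the log2 scale. Of the genes most like them the values were 1.95 for Ifi44l, 1.57 for Clec7a, 1.47 for Slfn1, 1.05 for Treml4, 0.92 for Lilra5, 0.77 for Syngr1, 0.56 for Cytip (called in 9 of 17 alternatives) and 0.34 for Hmox1. For Hmox2 the interaction was 0.84.

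In antigen processing and co-stimulation the interaction was 0.56 for Ctss (8 of 18 alternatives), 0.40 for Ifi30, 0.42 for Ctsz, -0.38 for Lgmn, -0.24 for Lamp2 (10 of 18), 0.80 for Cd40 and 0.48 for Cd86 (6 of 17). In the class I pathway it was 0.68 for Psmb9, 0.63 for Psmb10, 0.41 for Psme2 and 0.36 for Nlrc5 (7 of 18). Among the regulators it was -0.41 for Nfyb (8 of 18) and 0.34 for Irf1 (6 of 18).

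Among macrophage and dendritic cell markers the interaction was -1.25 for Adgre1, 1.37 for Vsig4, 0.66 for C1qc, 0.57 for C1qa (6 of 18), 0.40 for C1qb (9 of 18), -0.85 for Itgam, -0.47 for Cd14, 1.00 for Itgax and 0.43 for Sirpa. Among the other markers it was -1.21 for Fcgr2b, 0.72 for Sparc, 0.48 for Postn (14 of 18), 0.51 for Tspan8 (12 of 18), 0.54 for Pkhd1 (14 of 18), 0.35 for Krt7 (11 of 18), -0.83 for Fgb, -0.68 for Cps1 and -0.36 for Ambp.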

How the results depend on the processing

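Of 886 values of the members under the alternatives, 850 kept direction and side of the threshold, 20 lost and 16 gained a call, and 0 reversed. Cd74 and H2-Aa kept their interaction calls in every alternative that could be fitted (1.28 to 1.96 and 1.09 to 1.34); H2-Aa has no value with dim genes left out. For 88 other named genes, 9290 of 9860 values stayed, 452 lost and 113 gained a call, and 5 reversed, all of Nlrc5. With the mean of its probe sets Nlrc5 gave -0.033 in combined against control, -0.021 against HO2 knockdown and -0.030 for the interaction, and with the most variable probe set -0.075 and -0.072 in the first and second of these; the cause was not tested.

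At an adjusted p under 0.01, genes called went from 2557 to 1575 in HO1 knockout against control, from 6775 to 4283 in combined against HO2 knockdown and from 2442 to 1065 for the interaction, which gave 1359 without the mean-variance trend. The 1 member higher in HO2 knockdown against control became 0 without the trend, with array weights, after another quantile normalization, with only the 2 groups compared and at 0.01. With dim genes left out, members higher were 1 in combined against HO1 knockout and 1 for the interaction, since H2-Aa is dropped.

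Leaving out 1 array at a time, genes called ranged from 1704 (without HO1 knockout replicate 1) to 2937 in HO1 knockout against control, from 3827 (without HO2 knockdown replicate 1) to 8253 in combined against HO2 knockdown, and from 1301 (without HO2 knockdown replicate 1) to 4744 (without control replicate 2) for the interaction. Members higher ranged from 1 to 3 in HO1 knockout and from 0 to 2 in HO2 knockdown, each against control, where members lower ranged from 0 to 1. They ranged from 2 to 6 in combined against HO2 knockdown and from 2 to 4 for the interaction. A group left with 1 array is assumed to vary like the others.

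Same-numbered replicates had deviation correlations of -0.261 to 0.122. With 2 arrays a group, these cannot tell whether the numbers pair the samples. With the replicate block, genes called were 2501 in HO1 knockout, 6431 in HO2 knockdown and 5871 in combined against control, 4491 and 6564 in combined against HO1 knockout and HO2 knockdown, and 2327 for the interaction, and members higher stayed at 2, 1, 3, 2, 4 and 2. Low signal limits H2-Aa, H2-Oa, H2-Ob, H2-Ea and Itgax.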
